A study of Mus musculus with 12 samples.

Results

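The enzymes that assemble triglycerides from glycerol phosphate and fatty acids were examined in RNA of the adrenal cortex, together with the droplet gene *Fitm2*. The 10 genes were chosen by name from textbook knowledge of the pathway, with earlier results of these data known. They are 10 of the 49585 genes counted in each mouse. Their counts beside the shares of all genes are therefore descriptions. RNA was sequenced from the adrenal cortex of 12 mice, 1 library per mouse, with 4 mice in each of 3 groups. ND mice received a low-fat diet for 20 weeks, which the labels call Normal Diet. HFD mice received a high-fat diet for the same 20 weeks. Vasc mice received the high-fat diet for 20 weeks and icosapent ethyl, an ester of eicosapentaenoic acid sold as Vascepa, mixed into that diet for the last 10 of them. The study's methods describe male wild-type C57BL/6J mice that were 6 weeks old when feeding began, whereas the labels give the genotype Fads2-/- for all 12. *Fads2* was counted at between 452 and 2182 CPM (the reads of a gene relative to the TMM-scaled total of its library) in these mice, so its transcript was present in each of them.

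Triglyceride is built in 4 steps. A glycerol-3-phosphate acyltransferase adds the first fatty acid, and an acylglycerol-phosphate acyltransferase adds the second to give phosphatidic acid. A lipin removes the phosphate to give diacylglycerol, and a diacylglycerol acyltransferase adds the last fatty acid. *Gpam* encodes the acyltransferase of the outer mitochondrial membrane that performs the first step, and *Gpat3* and *Gpat4* encode those of the endoplasmic reticulum. *Agpat2* serves the second step, *Lpin1*, *Lpin2* and *Lpin3* the third, and *Dgat1* and *Dgat2* the last. *Fitm2* encodes a protein of the endoplasmic reticulum that is needed for lipid droplets to form from it, and performs none of these 4 steps. Cells of the adrenal cortex are known for droplets rich in cholesteryl ester, the store from which steroid hormones are made, and these droplets also hold triglyceride.

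Promoter sequence was available for 7 of the 10 genes, in 11 windows of 300 bases (250 before and 50 after a transcript start, RefSeq, build GRCm38.p6). *Gpat4*, *Dgat1* and *Dgat2* had none. The 250 bases before the start are shown for *Gpam* and *Fitm2*, the members that rose in HFD versus ND mice, and for *Lpin1*, the member that lay lower, because the results turn on these genes. All 3 lie on the minus strand and are written 5′ to 3′ along the gene. Capitals mark a match to CCAAT (the NF-Y box, read here on the opposite strand as ATTGG) in *Gpam* and to GGGCGG (the Sp1 box) in *Fitm2*. The windows are chr19:55127239-55127488 for *Gpam*, chr2:163472630-163472879 for *Fitm2* and chr12:16610967-16611216 for *Lpin1*.
Gpam: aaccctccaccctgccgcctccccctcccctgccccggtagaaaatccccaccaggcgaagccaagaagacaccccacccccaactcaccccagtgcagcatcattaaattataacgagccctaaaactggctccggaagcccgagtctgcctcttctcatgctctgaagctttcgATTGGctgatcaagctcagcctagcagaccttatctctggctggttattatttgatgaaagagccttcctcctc
Fitm2: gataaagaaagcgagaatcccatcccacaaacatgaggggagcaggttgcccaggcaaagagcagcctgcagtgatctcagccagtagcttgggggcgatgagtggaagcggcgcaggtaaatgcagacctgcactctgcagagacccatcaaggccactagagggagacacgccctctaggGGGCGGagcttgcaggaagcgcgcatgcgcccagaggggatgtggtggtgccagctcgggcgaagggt
Lpin1: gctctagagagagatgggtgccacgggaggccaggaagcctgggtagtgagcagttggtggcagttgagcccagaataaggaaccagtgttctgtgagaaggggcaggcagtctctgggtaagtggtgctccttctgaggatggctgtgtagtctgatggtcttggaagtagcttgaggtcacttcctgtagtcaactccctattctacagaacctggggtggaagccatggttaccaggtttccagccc

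The CCAAT match of *Gpam* begins at base -74 from the start and the GGGCGG match of *Fitm2* at base -68. A second *Gpam* start, inside the gene, had a GGGCGG match on the opposite strand at base -16. Over all 300-base windows, 6 letter strings were searched on both strands. GGGCGG was found in 7 of the 11 member windows (6 of the 7 members) and in 35.7% of the 32851 promoters of the reference table. In *Agpat2* and *Gpat3*, 2 of its 3 matches shared a letter. CCAAT was found in 2 of the 11 windows (*Gpam* and *Lpin2*) and in 37.4% of all promoters, and the E-box CACGTG in 2 of the 11 (*Lpin2* and *Lpin3*) and in 7.15% of all promoters. No member window held TCACNCCAC (core of a sterol element, 1.24% of all promoters), AAGGTCA (a site of NR5A1 and related receptors, 4.72%) or TGACGTCA (cAMP element, 1.79%). *Lpin1* held none of the 6 strings. These matches describe letters and were not tested for binding.

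All 10 genes were expressed in every mouse, with between 169 and 8889 counts per gene and mouse. Compared per kilobase of all exons, *Fitm2* had the highest level in each group, at 17.5 ± 1.83 CPM per kb (SD, n = 4) in ND, 30.6 ± 4.35 in HFD and 26.3 ± 7.29 in Vasc mice. *Dgat1* came next at 15.1 ± 9.02, 25.5 ± 19.5 and 19.0 ± 17.1 CPM per kb, and its spread reached the levels of *Fitm2*, *Gpat4* and *Agpat2*. *Gpam* was lowest of the 10 in ND mice, at 2.02 ± 0.712 CPM per kb, and had rank 6 in HFD and Vasc mice, at 7.80 ± 4.10 and 7.40 ± 5.24. In ND mice it lay within the spread of *Lpin2* (2.22 ± 0.402) and *Gpat3* (2.77 ± 0.649), so these neighbours were not separated there by this length. *Gpat3* was lowest in HFD and Vasc mice, at 2.97 ± 1.20 and 2.24 ± 0.646 CPM per kb. The ranks rest on the length of all exons. It is 3056 bases in *Dgat1*, 12233 in *Lpin2* and 3967 in *Fitm2*, against 1888, 5640 and 3967 for the longest transcript. By the longest transcript, the mean of *Dgat1* lies above that of *Fitm2* in each group.

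**Figure D1:**
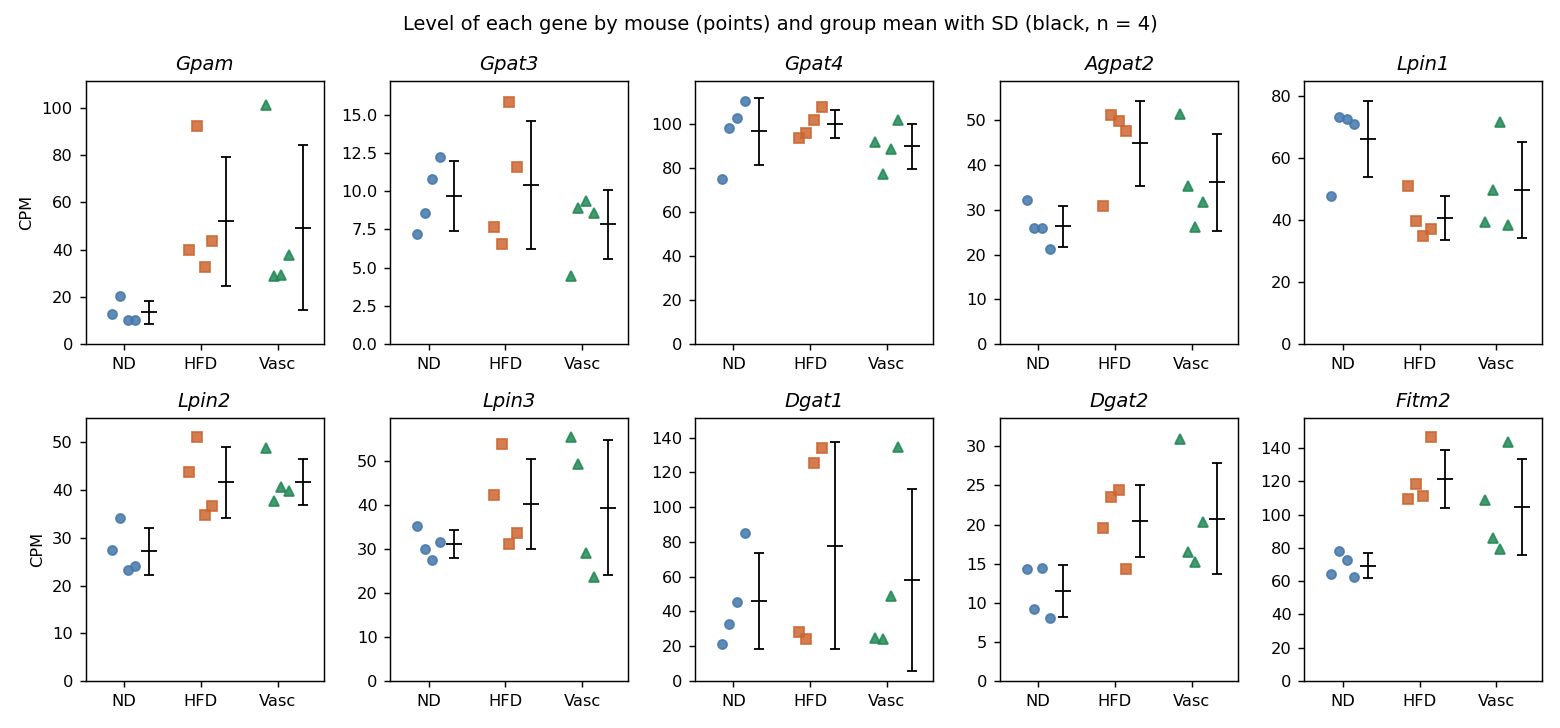
Level of each of the 10 genes in CPM (y axis, from 0) by group (x axis), with 1 point per mouse and the group mean with its SD in black (n = 4). All HFD and Vasc points of *Gpam* lie above the highest ND point of 20.3 CPM, and *Dgat1* is split within each group.

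The first comparison asks how the pathway differed between the cortex of mice on the high-fat and on the low-fat diet. *Gpam* and *Fitm2* rose in HFD mice, *Agpat2*, *Lpin2*, *Dgat1* and *Dgat2* had fitted folds of 1.52 to 1.76 and *Lpin3* of 1.28 without passing the test, *Lpin1* had a fitted fold of 0.61 without passing it, and *Gpat4* and *Gpat3* had folds of 1.03 and 1.07. In all, 9 of the 10 genes had a higher level in HFD mice, and their median log2 fold change was 0.68 against -0.01 for all genes tested, but with library totals in place of TMM *Gpat3* and *Gpat4* turned to -0.024 and -0.055, where the median of all genes was -0.11. Tests were edgeR's quasi-likelihood test over all genes with Benjamini-Hochberg adjustment, and a call is an adjusted p below 0.05. By this rule 2 of the 10 members were called, both higher, against 1.45% of the 15909 genes tested in either direction. They were *Gpam*, an enzyme of the pathway, and *Fitm2*, which performs none of its steps. At an unadjusted p below 0.05 it was 6 members against 24.8% of all genes. DESeq2's Wald test called the same 6, 5 higher and *Lpin1* lower, against 12.7% of all genes. Of the 10 members, 3 had no overlap between the groups (*Gpam*, *Lpin2* and *Fitm2*), against 13.5% of all genes.

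*Gpam*, the mitochondrial enzyme of the first step, was at 12.9, 20.3, 10.3 and 10.3 CPM in ND replicates 2, 5, 6 and 7. It was at 39.6, 92.3, 32.4 and 43.5 CPM in HFD replicates 1 to 4. The groups did not overlap, and HFD replicate 2 stood well above the other HFD mice. The log2 fold change was 1.94 ± 0.36 (SE), which is 3.83-fold (95% interval 2.17 to 6.77), with an adjusted p of 0.045 by edgeR and 1.2e-05 by DESeq2. The fold change without HFD replicate 2 was 1.51 on the log2 scale, with an adjusted p of 0.113 by edgeR. Without each of the 8 mice in turn, the log2 fold change of *Gpam* ran from 1.51 to 2.21 and its adjusted p by edgeR from 0.0316 to 0.137, below 0.05 only without HFD replicate 1.

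*Fitm2*, needed for droplet formation, was at 64.6, 78.2, 72.5 and 62.4 CPM in the ND mice, in the same order. In HFD replicates 1 to 4 it was at 109, 119, 111 and 147 CPM. Every HFD mouse lay above every ND mouse, and the gap between the groups was wider than the spread in ND. The log2 fold change was 0.80 ± 0.12, which is 1.74-fold (95% interval 1.45 to 2.08), with an adjusted p of 0.0376 by edgeR and 3.87e-06 by DESeq2. Without each mouse in turn, it ran from 0.70 to 0.86 with adjusted p by edgeR from 0.0179 to 0.129, again below 0.05 only without HFD replicate 1. Its antisense neighbour 2310001K24Rik had at most 9 counts in a mouse, and counting used the strand.

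The libraries also held RNA of other cells, and part of the macrophage markers were lower in HFD than in ND mice. The summed level of 10 adrenocortical markers (*Star*, *Cyp11b1* and others) was 47162 to 74200 CPM in ND, 59395 to 101204 in HFD and 62662 to 94314 in Vasc mice. Each of these 10 was higher in HFD than in ND mice, by 0.36 on the log2 scale at the median. By edgeR 0 passed the test and 5 had an unadjusted p below 0.05, while DESeq2 called 2, both higher. The level of these adrenocortical markers was not used as a covariate, so its part in the changes of the members was not tested. The sum of 12 markers of chromaffin cells, the cells of the medulla, was 6445 to 22703 CPM in ND, 3108 to 10034 in HFD and 5569 to 11046 in Vasc mice. All 12 were lower in HFD mice, and 0 passed the test by edgeR, 10 had an unadjusted p below 0.05 and 6 were called by DESeq2. The sum of 10 macrophage markers was 732 to 1096 CPM in ND and 511 to 617 in HFD mice, without overlap, and 5 of the 10 (*Cd68*, *C1qa*, *C1qc*, *Lyz2* and *Aif1*, at 0.42 to 0.60 times the ND level) were called lower in HFD mice by edgeR. The other macrophage markers were not called by edgeR. *Mrc1* and *Cd163* had fitted folds of 1.18 and 1.08, *Csf1r* of 0.93, *Adgre1* of 0.72 and *C1qb* of 0.64. In Vasc mice the macrophage sum was 561 to 703 CPM. The sum of 10 adipocyte markers was 140 to 298 CPM in ND, 220 to 328 in HFD and 182 to 297 in Vasc mice. Most of it came from *Plin1* (156 CPM in ND and 195 in HFD mice), and none of the 10 was called by edgeR, while DESeq2 called *Lep* and *Cidec* higher, at fitted folds of 9.13 and 2.85, and *Cfd* lower, at 0.23. Of 8 capsule and fibroblast markers 7 were lower in HFD mice, 0 were called by edgeR and 2 by DESeq2, and their sum was 392 to 650 CPM in ND and 297 to 422 in HFD mice. The sum of 8 endothelial markers overlapped, at 977 to 1461 CPM in ND and 1029 to 1346 in HFD mice. No marker of these lists was at 0 in every mouse of a group. In such bulk samples, fewer cells of a type and less RNA per cell cannot be told apart.

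With the mean of the chromaffin markers as a covariate, the log2 fold change was 1.40 ± 0.48 for *Gpam* (adjusted p of 0.507 by edgeR) and 0.74 ± 0.17 for *Fitm2* (adjusted p of 0.393 by edgeR). With the macrophage markers it was 2.29 ± 0.80 for *Gpam* (adjusted p of 0.246 by edgeR) and 0.59 ± 0.24 for *Fitm2* (adjusted p of 0.273 by edgeR). Either covariate ended both calls, and with each of them no gene of the whole table was called, whereas 1406 and 2722 genes had an unadjusted p below 0.05. The macrophage sums of ND and HFD mice did not overlap, so the macrophage fit could hardly separate diet from marker level. Its SE for *Gpam* was 0.80, against 0.36 with no covariate, and the calls lost there cannot be assigned to either. With the adipocyte markers both members stayed called, at 1.88 ± 0.41 and 0.80 ± 0.12, with adjusted p of 0.0242 and 0.0166 by edgeR. HFD replicates 1 and 3 and ND replicates 5 and 7, chosen after the data were seen for their similar chromaffin range, gave log2 fold changes of 1.22 ± 0.35 for *Gpam* and 0.64 ± 0.17 for *Fitm2*, with adjusted p of 0.891 and 0.832 by edgeR. Their macrophage sums stayed apart, at 537 and 617 CPM in these HFD mice and 1040 and 1096 CPM in these ND mice. With so few mice 0 of the 15979 genes tested were called, and the lowest adjusted p of any gene was 0.0987 by edgeR. The calls lost in this fit therefore say nothing particular about these members. Over all alternatives other than a left-out mouse, the adjusted p ran from 1.2e-05 to 0.891 for *Gpam* and from 3.87e-06 to 0.832 for *Fitm2*. The lowest values came from DESeq2 and the highest from the fit of these few mice by edgeR. With library totals in place of TMM they were 0.0689 and 0.0524 by edgeR, and with no filter on low counts that of *Gpam* was 0.071. The part of these cells in the change of *Gpam* and *Fitm2* was not tested beyond these fits.

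**Figure D2:**
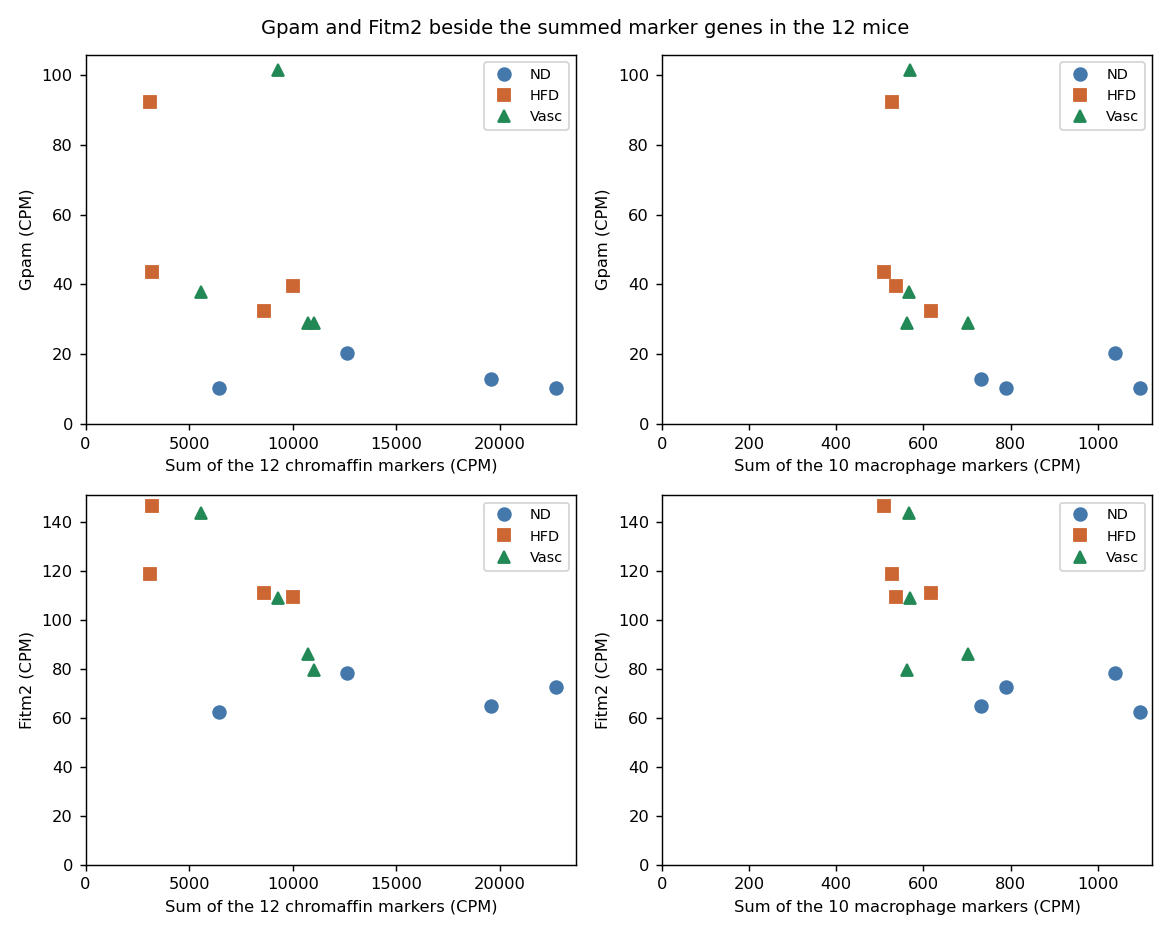
*Gpam* (top) and *Fitm2* (bottom) in CPM (y axes) against the summed CPM of 12 chromaffin markers (left) and 10 macrophage markers (right), 1 point per mouse. ND replicate 7, with 6445 CPM of chromaffin markers, lies inside the HFD range of these markers and at 10.3 CPM of *Gpam*, and the macrophage sums of ND and HFD mice do not overlap.

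At the first step, *Gpam* passed the test and the enzymes of the endoplasmic reticulum did not. *Gpat4*, the enzyme of the endoplasmic reticulum with the most counts of the family, was at 75.1 to 111 CPM in ND and 93.7 to 108 CPM in HFD mice, and its groups overlapped. Its log2 fold change of 0.04 had a 95% interval of -0.21 to 0.29, with an adjusted p of 0.854 by edgeR. *Gpat3* was low in both groups, at 7.18 to 12.3 CPM in ND and 6.58 to 15.8 CPM in HFD mice. Its log2 fold change was 0.10, with the wider interval of -0.56 to 0.75. Over these 3 genes, counted per kilobase, *Gpam* made up 10.7% ± 3.85 in ND and 29.4% ± 11.5 in HFD mice. The lowest HFD share was 19.7% and the highest ND share 15.1%, so the groups did not overlap. *Gpat4* made up 75.0% ± 2.01 in ND and 58.8% ± 7.37 in HFD mice, also without overlap, and *Gpat3* 14.3% ± 1.88 and 11.8% ± 5.09. The shares of a family are parts of the same whole in each mouse, so the shares of *Gpam* and *Gpat4* are not separate observations. These shares are descriptions and had no test.

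At the second step, *Agpat2* was at 32.3, 25.9, 26.0 and 21.2 CPM in ND replicates 2, 5, 6 and 7. HFD replicate 1 lay inside that range at 30.9 CPM, and HFD replicates 2 to 4 lay above it at 51.2, 49.8 and 47.5 CPM. This gave a log2 fold change of 0.75 ± 0.19, with an adjusted p of 0.0722 by edgeR and 0.00579 by DESeq2. Without HFD replicate 1 it was 0.90, with an adjusted p of 0.0245 by edgeR. *Egfl7* on the opposite strand of the *Agpat2* locus had up to 1603 counts in a mouse, and reads were assigned by strand.

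The lipins of the third step differed from each other in direction, and none was called by edgeR. *Lpin1* was the member with a lower level in HFD mice. It was at 47.6, 73.2, 72.6 and 71.0 CPM in the ND mice, of which replicate 2 was low, and at 50.8, 39.6, 34.9 and 37.1 CPM in the HFD mice, of which replicate 1 was high. Only these mice overlapped. The log2 fold change of -0.71 ± 0.16, 0.61-fold, had an adjusted p of 0.0617 by edgeR and 0.00506 by DESeq2. It was -0.84 without HFD replicate 1 and -0.83 without ND replicate 2, with adjusted p of 0.0304 and 0.0493 by edgeR. *Lpin2* was at 27.4, 34.1, 23.2 and 24.1 CPM in ND mice and 43.9, 51.1, 34.8 and 36.6 CPM in HFD mice. The groups of *Lpin2* did not overlap, by a margin of less than 1 CPM. Its log2 fold change was 0.61 ± 0.17, with an adjusted p of 0.0847 by edgeR and 0.0125 by DESeq2. *Lpin3* overlapped, at 27.5 to 35.3 CPM in ND and 31.2 to 53.9 CPM in HFD mice, with a log2 fold change of 0.36 ± 0.18 and an adjusted p of 0.239 by edgeR.

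Within the lipins, per kilobase, *Lpin1* made up 39.1% ± 6.60 in ND and 23.1% ± 3.52 in HFD mice. The lowest ND share of *Lpin1*, 29.5%, was above the highest HFD share, 26.0%. *Lpin2* made up 12.7% ± 1.91 in ND and 18.5% ± 0.607 in HFD mice, and *Lpin3* 48.3% ± 6.17 and 58.5% ± 3.57. With the length of the longest transcript in place of all exons, the share of *Lpin1* was 46.0% in ND and 28.0% in HFD mice, so the level of a share rests on the length chosen. The direction between the groups was the same with both lengths.

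**Figure D3:**
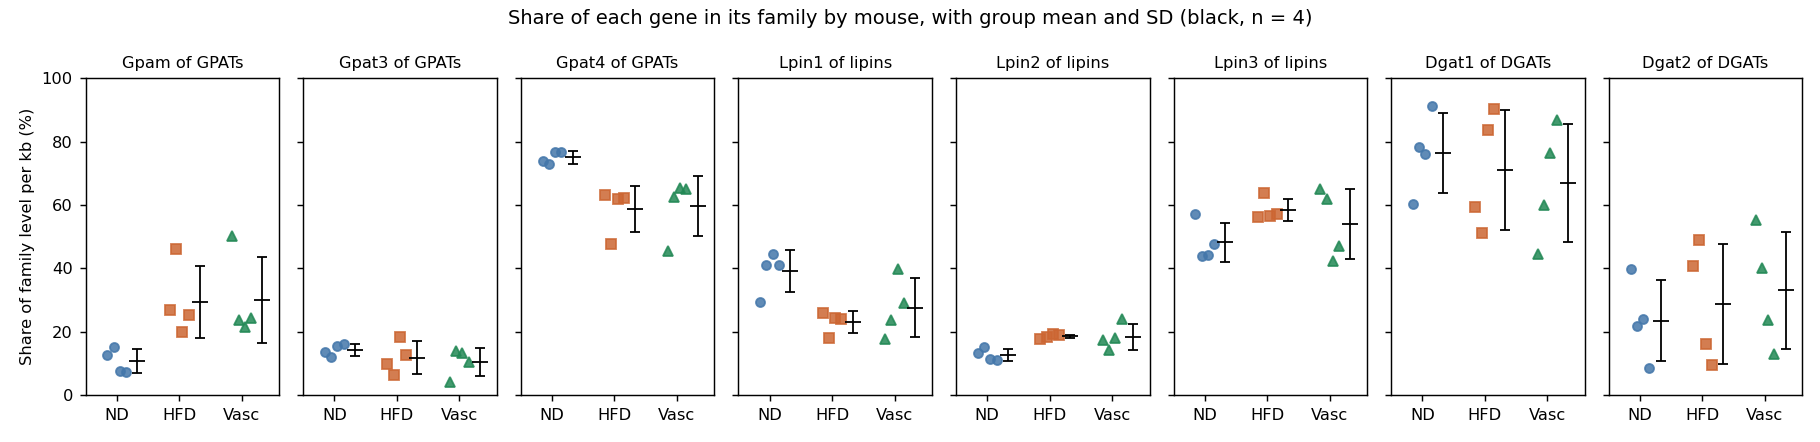
Share of each gene in the summed CPM per kb of its family (y axis, percent, 0 to 100) by group, 1 point per mouse, with the group mean and SD in black (n = 4). The shares of *Gpam*, *Gpat4*, *Lpin1* and *Lpin2* do not overlap between ND and HFD mice, and *Dgat1* and *Dgat2* overlap widely. Shares within a family are bound to each other, as parts of the same whole.

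At the last step, *Dgat2* was at 14.3, 9.19, 14.5 and 8.10 CPM in ND replicates 2, 5, 6 and 7. It was at 19.6, 23.6, 24.4 and 14.3 CPM in the HFD mice, of which replicate 4, at 14.29 CPM, lay inside the ND range (8.10 to 14.5 CPM). *Dgat2* had a log2 fold change of 0.82 ± 0.25, with an adjusted p of 0.104 by edgeR and 0.0192 by DESeq2. *Dgat1* varied most within groups among the members, its highest value being 3.95, 5.49 and 5.53 times its lowest in ND, HFD and Vasc mice. It was at 21.5, 33.0, 45.5 and 84.9 CPM in the ND mice and at 28.2, 24.4, 125 and 134 CPM in the HFD mice. HFD replicates 3 and 4 stood far above replicates 1 and 2, and the latter lay inside the ND range. The log2 fold change of 0.75 ± 0.62 had a 95% interval of -0.65 to 2.15 and an adjusted p of 0.483 by edgeR, so a difference of *Dgat1* was not detectable among these mice. *Dgat2* made up 23.5% ± 12.7 of the pair in ND and 28.9% ± 19.0 in HFD mice.

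**Figure D4:**
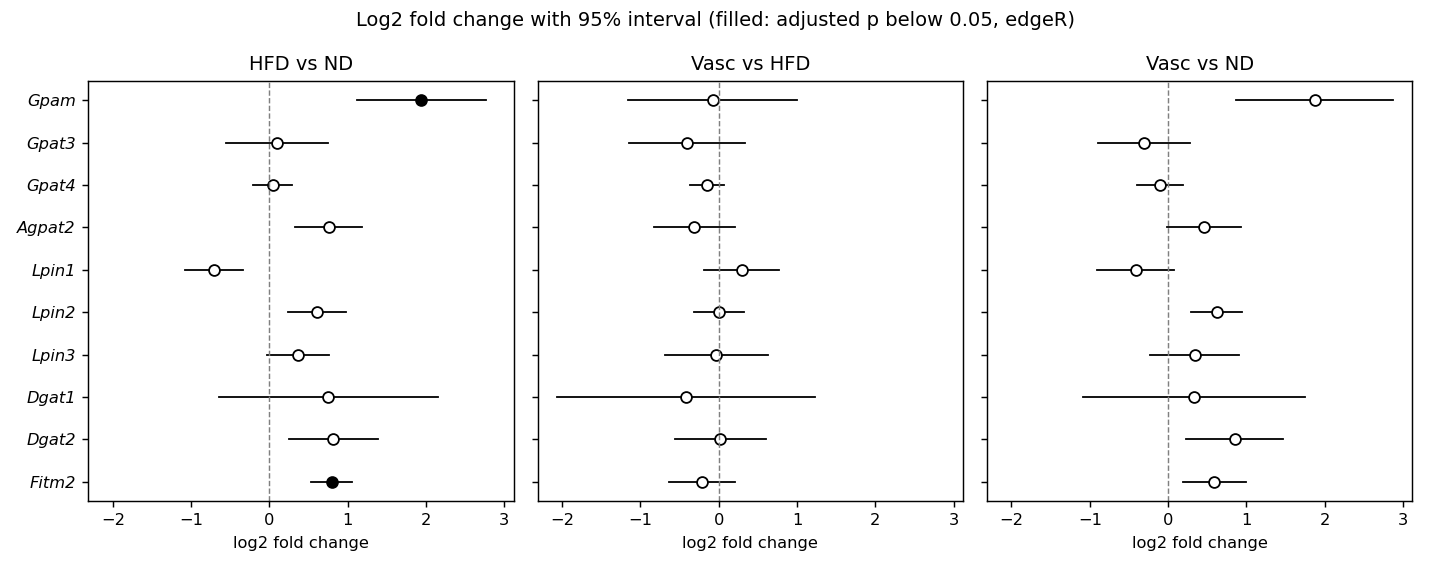
Log2 fold change (x axis) of the 10 genes (y axis) in the 3 comparisons, with 95% intervals from edgeR, filled where the adjusted p was below 0.05. *Gpam* at 1.94 and *Fitm2* at 0.80 are filled in HFD versus ND mice, and no gene is filled in the others.

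The second comparison asks whether icosapent ethyl, added to the high-fat diet, changed the pathway. No member was called in Vasc versus HFD mice, against 0% of the 15913 genes tested. At an unadjusted p below 0.05 it was again 0 members, against 1.39% of all genes. DESeq2 called 0 members, against 0.0377% of all genes, and 0 members had groups without overlap, against 1.14%. All 10 adjusted p were 0.9997 by edgeR. Their median log2 fold change was -0.11, with 7 of the 10 lower in Vasc mice. For all genes tested the median was 0.0040, with 7778 of the 15913 lower. All 10 adrenocortical markers were lower in Vasc mice too, with a median of -0.11 and 0 called.

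*Gpam* was at 101, 29.0, 29.1 and 37.8 CPM in Vasc replicates 1 to 4. Vasc replicate 1 was above every HFD mouse and replicates 2 and 3 were below every HFD mouse. The log2 fold change was -0.08, with a 95% interval of -1.16 to 1.01, which spans changes from 0.45-fold to 2.01-fold. *Fitm2* was at 109, 85.9, 79.6 and 144 CPM. Vasc replicates 1 to 3 lay between the highest ND mouse and the lowest HFD mouse, replicate 1 just under the latter, and replicate 4 was near the highest HFD mouse. Its log2 fold change of -0.22 had an interval of -0.64 to 0.21.

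The narrowest intervals between Vasc and HFD mice were those of *Gpat4* (-0.15, interval -0.37 to 0.06) and *Lpin2* (0.0037, interval -0.32 to 0.33). *Lpin2* was at 48.8, 37.7, 40.6 and 39.7 CPM in Vasc mice. *Agpat2*, at 51.4, 35.3, 26.2 and 31.8 CPM, had a log2 fold change of -0.31 (interval -0.83 to 0.21). *Lpin1*, at 39.4, 49.6, 71.5 and 38.2 CPM, had 0.29 (interval -0.19 to 0.78), with Vasc replicate 3 at the level of the ND mice. *Dgat2* was at 30.9, 16.5, 15.2 and 20.4 CPM, with a log2 fold change of 0.02 (interval -0.56 to 0.60).

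*Dgat1* was at 24.7, 24.4, 48.8 and 135 CPM in the Vasc mice, as divided as in HFD mice, and its interval of -2.07 to 1.23 was the widest of the 10. *Gpat3*, at 4.49, 8.93, 9.37 and 8.59 CPM, had a log2 fold change of -0.41 (interval -1.14 to 0.33). *Lpin3* was at 55.3, 49.2, 29.1 and 23.6 CPM, with replicates 1 and 2 high and the others low, and had -0.03 (interval -0.69 to 0.63).

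The third comparison sets Vasc against ND mice, so that both diet and supplement differ. It shares its ND mice with the first comparison and its Vasc mice with the second. No member was called by edgeR, against 0% of the 15935 genes tested. At an unadjusted p below 0.05 it was 4 members (*Gpam*, *Lpin2*, *Dgat2* and *Fitm2*), against 14% of all genes. DESeq2 called 2, *Gpam* and *Lpin2*, against 2.96% of all genes. The same 4 members that had an unadjusted p below 0.05 were higher without overlap. Over all 15935 genes, 7.73% had no overlap in either direction, and 644 genes were higher without overlap. *Gpam* had a log2 fold change of 1.87 ± 0.44 (3.66-fold, 95% interval 1.83 to 7.33), with an adjusted p of 0.193 by edgeR and 0.00175 by DESeq2. Without each mouse in turn, the log2 fold change of *Gpam* ran from 1.25 to 2.14, with adjusted p by edgeR from 0.155 to 0.437. *Lpin2* had 0.62 ± 0.14, with an adjusted p of 0.188 by edgeR and 0.00837 by DESeq2. *Dgat2* had 0.85 ± 0.27 and *Fitm2* 0.59 ± 0.18, with adjusted p of 0.267 and 0.255 by edgeR. *Lpin1* was lower by -0.41 ± 0.22 with overlap. The share of *Gpam* among the 3 first-step genes was 29.9% ± 13.6 in Vasc mice, with 21.5% as its lowest value.

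Within the HFD and Vasc groups, some members were high in the same mice and others in different mice. HFD replicate 2 and Vasc replicate 1 had the highest *Gpam* of their groups, at 92.3 and 101 CPM. The same 2 mice also had the highest *Lpin2*, *Lpin3* and *Agpat2* of their groups and the lowest *Gpat3*, at 6.58 and 4.49 CPM. In them *Gpam* took 46.0% and 50.3% of the first-step family. Of the 2, Vasc replicate 1 also had the highest *Dgat2* of its group, at 30.9 CPM. Neither mouse was high in *Dgat1*, at 24.4 and 24.7 CPM. HFD replicates 3 and 4 and Vasc replicate 4, high in *Dgat1*, had *Gpam* at 32.4, 43.5 and 37.8 CPM.

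Many genes followed *Dgat1* over the 12 mice. *Nr5a1*, which encodes the steroidogenic factor SF-1, and *Star*, whose product carries cholesterol into mitochondria, were set beside *Dgat1* after its values were seen, and ranked only 465 and 1321 of 12623 genes by likeness to it (Pearson's r of log2 CPM over the mice). *Nr5a1* was at 1262 and 1204 CPM in HFD replicates 3 and 4, at 1254 CPM in Vasc replicate 4 and at 1161 CPM in ND replicate 7. In the other 8 mice *Nr5a1* lay between 319 and 975 CPM and *Dgat1* between 21.5 and 48.8 CPM. *Star* was at 36157, 30650 and 32915 CPM in the 3 mice with over 100 CPM of *Dgat1*, and between 6842 and 25844 CPM in the others. The sum of the 10 adrenocortical markers, which include *Nr5a1* and *Star*, was also highest in these 3 mice. It was 101204, 98104 and 94314 CPM there, with Vasc replicate 3 next at 78872 CPM. A link of *Dgat1* to *Nr5a1* or *Star* apart from this marker level was not tested. ND replicate 7, with 84.9 CPM of *Dgat1*, had 20523 CPM of *Star*, below the 25844 CPM of Vasc replicate 3.

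**Figure D5:**
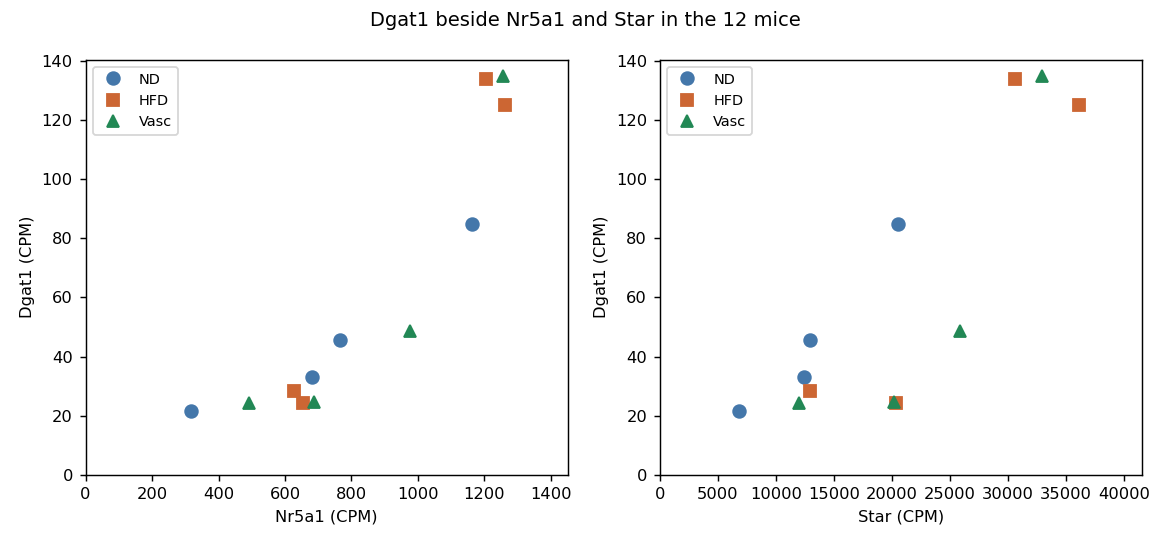
*Dgat1* (y axis, CPM) against *Nr5a1* (left) and *Star* (right, both in CPM), 1 point per mouse and 1 marker per group. The 3 mice above 100 CPM of *Dgat1* have *Nr5a1* at 1204 to 1262 CPM, and they come from the HFD and Vasc groups.

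Likeness to a member was measured by Pearson's r of log2 CPM over the 12 mice among 12623 genes, as a ranking with no test, because these genes are the top of a search and the mice share diet, depth and cell makeup. Nearest to *Gpam* were *Fads6* (r = 0.978), *Cul4a* (0.974) and *Xpo5* (0.974), and after removal of the group means the same genes had r of 0.954, 0.919 and 0.956. Nearest to *Fitm2* were *Slc35f6* (0.976), *Plekha8* (0.970) and *Ndufaf4* (0.966), with 0.967, 0.907 and 0.889 after removal of the group means. Like *Gpam*, *Fads6* was highest in HFD replicate 2 and Vasc replicate 1, at 195 and 193 CPM. For *Dgat1*, added after its values were seen, the nearest were *Map2k4* (0.988), *Eif1a* (0.986) and *Wdr43* (0.985).

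Neighbouring reactions were compared between HFD and ND mice in the same fit. Of 20 partner genes of glycerolipid synthesis (other acyltransferases, glycerol phosphate supply, phosphatases and droplet proteins), 18 could be tested and 1 was called by edgeR and by DESeq2, *Agpat3*, a further acyltransferase of the second step. *Agpat3* was at 185 ± 23.7 CPM in ND and 299 ± 30.4 CPM in HFD mice and rose by 0.69 ± 0.11 on the log2 scale, with an adjusted p of 0.0376 by edgeR. The median over the 18 was 0.05. Of 14 genes that lead phosphatidic acid or diacylglycerol elsewhere, including *Soat1*, 0 were called by edgeR and by DESeq2, 5 had an unadjusted p below 0.05 and the median was 0.09. Of 10 genes of triglyceride breakdown, 9 could be tested and 1 was called by edgeR, *Lipe*, which encodes hormone-sensitive lipase. DESeq2 called 2, *Lipe* and *Abhd5*. Of the breakdown genes 3 (*Lipe*, *Abhd5* and *Pnpla2*) were higher without overlap, against 13.5% of all genes in either direction. So were 1 partner gene (*Agpat3*) and 2 of the 14 genes of other fates (*Pgs1* and *Selenoi*). *Lipe* was at 55.4 ± 4.50 CPM in ND and 103 ± 10.7 CPM in HFD mice and rose by 0.88 ± 0.10 on the log2 scale, with an adjusted p of 0.0293 by edgeR. The median over the 9 was 0.17. *Gpat2*, *Mogat1* and *Ces1f* had too few counts to be tested. In Vasc versus HFD mice 0 genes of these lists were called or had an unadjusted p below 0.05.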

How the data were processed

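Per the study's methods and the labels, strand-specific libraries of total RNA were trimmed with cutadapt, aligned to GRCm38 with STAR and counted on GENCODE M12 genes with HTSeq 0.6.1p1. The deposited values were unnormalized read counts of each gene, 1 library per mouse. The library totals were 34785979 to 67295963 counts, and no pair of libraries was a copy (lowest chi-square per degree of freedom 26.5).

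Each pair of groups was fitted with edgeR 4.0.16 in R 4.3.3 (TMM, filterByExpr at a minimum count of 10, robust quasi-likelihood test, Benjamini-Hochberg over all genes, threshold 0.05). CPM used TMM factors over all 12 mice. Lengths and symbols came from GENCODE M21. Alternatives were DESeq2 1.42.0, its size factors, other filters, library totals, all 12 mice in 1 fit, a threshold of 0.1, marker covariates, a replicate block and each mouse left out. The procedure was tested on simulated data. Both HFD and Vasc mice are numbered 1 to 4, and deviations from the group means correlated at 0.254, 0.122, 0.354 and 0.654 within numbers, all above 0.1, so the replicate block was run beside the unpaired fit, which gave every Vasc versus HFD value in the text unless stated. HFD replicate 1 and Vasc replicate 2 reached 0.621.

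The members, lists and tests were chosen with earlier results of these data known. Genes named by rule were the members, every gene of the 3 related pathway lists past the threshold and the 3 genes most like each called member. Other genes, such as cell type markers, *Soat1* and the genes beside *Dgat1*, were named outside it after their values were seen. Precision rests on 4 mice per group and on these depths.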

Additional observations from a re-analysis of the deposited data

Results flagged for a closer look

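Each gene was examined for a mouse far from the other 3 of its group by Dixon's ratio (gap over range, against its 95% critical value). Of 30 sets of 4 values, 3 passed, and chance passes about 1 in 20. *Gpam* in Vasc replicate 1 was at 101 CPM, with the next Vasc mouse at 37.8 CPM (ratio 0.878). *Gpat3* in the same mouse was at 4.49 CPM, with the next at 8.59 CPM (ratio 0.842). *Lpin1* in ND replicate 2 was at 47.6 CPM, with the other ND mice at 71.0 CPM or more (ratio 0.913). The cause was not tested.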

How the results depend on the processing

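Of the 10 members, 2 were called in HFD versus ND mice by edgeR, and 3 alternatives (DESeq2's size factors, all 12 mice fitted together, at least 10 counts in each mouse) gave a count within 1.5 times that. It was 6 with DESeq2's Wald test, 5 with a threshold of 0.1 and 5 with the adipocyte covariate. It was 1 with no filter on low counts and 0 with library totals, with the chromaffin or macrophage covariate, and in HFD1 and HFD3 against ND5 and ND7. With 1 mouse left out it ran from 0 to 4. Over all genes, 230 of 15909 were called in this comparison, 1396 with a threshold of 0.1 and 271 of 26017 with no filter on low counts. The number was 2019 by DESeq2, 2427 with the adipocyte covariate, 556 with all 12 mice and 84 with library totals. It was 0 with the other covariates or the mice of similar chromaffin range, and 0 to 918 with 1 mouse left out. In Vasc versus ND mice DESeq2 called 2 members where edgeR called 0, and 471 genes where edgeR called 0. In Vasc versus HFD mice DESeq2 called 6 genes where edgeR called 0, and no member under any alternative. The pairing of HFD and Vasc mice by replicate block left 0 members called, and the log2 fold change of *Gpam* was -0.17 with it. It changed no call.

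Directions turned for the following members, none of them called by edgeR in the comparison named. In HFD versus ND mice, *Gpat3* was at -0.024 (log2) with library totals and -0.16 to 0.26 with 1 mouse left out. *Gpat4* was at -0.055 with library totals, -0.061 with the chromaffin covariate and -0.10 in the mice of similar chromaffin range. With 1 mouse left out *Gpat4* ran from -0.056 to 0.10. In Vasc versus HFD mice, *Gpam* was at 0.33 with the chromaffin covariate and -0.70 to 0.36 with 1 mouse left out. *Lpin2* was at -0.0018 with no filter, -0.0077 with the macrophage covariate and -0.080 to 0.12 with 1 mouse left out. *Lpin3* was at 0.036 with library totals, 0.030 with the adipocyte covariate and -0.24 to 0.15 with 1 mouse left out. *Dgat2* was at -0.0070 with the chromaffin covariate, -0.10 with the macrophage covariate, -0.0043 with the replicate block and -0.24 to 0.15 with 1 mouse left out. In Vasc versus ND mice, *Gpat4* was at 0.18 with the macrophage covariate, and *Dgat1*, at 0.34 in the reported fit, was at -0.47 with the chromaffin covariate and -0.50 to 0.82 with 1 mouse left out. The share of *Lpin1* among the lipins was 46.0% in ND and 28.0% in HFD mice with the longest transcript. The cause was not tested.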
